A study of Rattus norvegicus with 5 samples.

Results

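The genes described here are the constitutive proteasome genes of the rat retina: every gene of the deposited tables whose symbol starts with Psma, Psmb, Psmc, Psmd, Psme, Psmf or Psmg and a digit, apart from Psmb8, Psmb9 and Psmb10. The rule uses names only and takes 46 of 25399 genes. It covers 8 genes of the core alpha ring, 8 of the core beta ring, 6 base ATPases, 3 genes of base scaffolds and a ubiquitin receptor, 8 lid genes, 7 assembly chaperones, and 5 activators and inhibitors. The remaining gene, Psmc3ip, is a meiotic recombination factor that carries the name of a subunit it binds. The word constitutive is loose for 4 others, since Psma8 is a testis form, Psmb11 a thymus form, and Psme1 and Psme2 are known to be induced by interferon.

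The proteasome is the barrel-shaped protease that removes proteins tagged with ubiquitin. Alpha rings gate the 20S core and beta rings hold its cutting sites, with Psmb5, Psmb6 and Psmb7 as the catalytic subunits. A 19S cap made of a base with ATPases and a lid with the deubiquitinase Psmd14 recognises, unfolds and threads the substrate. Photoreceptors make large amounts of outer segment proteins, and proteasome capacity is known to matter for their survival in models of protein misfolding.

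The libraries are droplet single-cell RNA sequencing of retinas of Sprague Dawley (SD) rats. One retinal sample was loaded per library, and the sources used here do not say how many animals it came from. Diabetes was induced by an injection of streptozotocin (STZ, a toxin of pancreatic beta cells) at 45 mg/kg, a blood glucose above 200 mg/dL counted as diabetic, and these rats ate a diet high in sugar, while controls received the citrate solvent. The series has 2 control samples at 0 weeks and 1 sample each at 2, 4 and 8 weeks of diabetes. The second control and the 3 diabetic samples were used, and the first control was not analysed here. STZ diabetes models loss of insulin, and time since STZ, age, diet, animal and library preparation cannot be told apart in these data. Ages of the animals are not given in the sources used here.

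The 4 libraries held 7649 to 16128 barcodes and 20151789 to 34177860 transcript counts (unique molecular identifiers, UMIs), and 4263 to 10840 cells with medians of 896 to 1381 UMIs passed the filters. Proteasome genes took 0.596% of the UMIs of kept cells in control, 0.675% at 2 weeks, 0.668% at 4 weeks and 0.646% at 8 weeks. The cell classes with at least 50 cells in every library that were compared, 6 in all, were rods (3139 to 7649 cells), Müller glia (163 to 410), bipolar cells (237 to 1003), amacrine cells (169 to 484), cones (54 to 171) and microglia (77 to 218). The proteasome genes were left out when cells were clustered. Each condition is a single library, so differences between conditions carry no test, and every interval below covers counting error only.

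Proteasome genes are known to share control by the transcription factor Nrf1, encoded by Nfe2l1, which binds antioxidant response elements. RefSeq promoter sequences on the GRCr8 build matched 41 of the 46 genes by symbol, with Psma7, Psmb11, Psmd6, Psmd12 and Psmd14 unmatched. In the 250 bases before the start, 7 of the 41 held TGACNNNGC on either strand, the core letters of such an element, against 10.1% of 33469 promoters. They belong to 4 core subunits, a base scaffold, a base chaperone and an activator. The stretches around the match are shown because they hold these core letters, and whether Nrf1 binds them was not tested (matched bases in capitals, 5′ to 3′ on the gene's strand).
Psmb5 (chr15:32047405-32047465, minus strand): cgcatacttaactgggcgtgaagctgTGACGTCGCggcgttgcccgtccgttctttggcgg
Psmb6 (chr10:55737827-55737887, plus strand): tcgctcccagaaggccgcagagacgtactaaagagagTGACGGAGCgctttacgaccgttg
Psmb2 (chr5:144254964-144255024, plus strand): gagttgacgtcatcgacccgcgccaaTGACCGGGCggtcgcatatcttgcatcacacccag
Psma3 (chr6:95219688-95219748, plus strand): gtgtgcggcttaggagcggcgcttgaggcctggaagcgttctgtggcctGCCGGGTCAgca
Psmd1 (chr9:94157780-94157840, plus strand): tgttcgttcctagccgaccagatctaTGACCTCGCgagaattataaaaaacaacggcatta
Psmd9 (chr12:39018307-39018367, minus strand): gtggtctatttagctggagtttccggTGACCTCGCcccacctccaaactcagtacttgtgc
Psme4 (chr14:108706562-108706622, plus strand): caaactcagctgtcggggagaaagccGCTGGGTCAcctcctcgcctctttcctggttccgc
In Psma3 and Psme4 the match lies on the opposite strand. Psmd9 holds a further match that lies outside the stretch printed. The letters CCAAT, the box bound by nuclear factor Y, were found in 20 of the 41 promoters and in 34.0% of all, and CCGGAAG, the core of a site for ETS factors, in 13 of the 41 and in 7.27% of all. The palindromic site of nuclear respiratory factor 1 was found in 5 of the 41 and in 3.75% of all. Both strands were read and matches were allowed to overlap. A match describes letters only, and the 41 promoters held more G and C (56.23%) than all promoters (52.25%).

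Psmg3 (a chaperone that helps build the alpha ring) and the base ATPase genes Psmc4 and Psmc2 stood apart from control in several classes at once, and their 160 bases before the start are shown beside those stretches. Capitals mark CCAAT on the opposite strand in Psmg3 and CCGGAAG on the opposite strand in Psmc2, and the Psmc4 stretch holds none of the searched motifs.
Psmg3 (chr12:19923128-19923287, plus strand): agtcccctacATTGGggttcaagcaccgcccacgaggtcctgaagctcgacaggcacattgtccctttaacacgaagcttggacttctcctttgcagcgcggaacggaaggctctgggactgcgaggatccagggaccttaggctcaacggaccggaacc
Psmc4 (chr1:92485061-92485220, minus strand): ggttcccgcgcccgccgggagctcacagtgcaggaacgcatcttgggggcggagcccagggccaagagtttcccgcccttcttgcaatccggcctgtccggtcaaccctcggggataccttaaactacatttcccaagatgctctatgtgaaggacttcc
Psmc2 (chr4:14162391-14162550, minus strand): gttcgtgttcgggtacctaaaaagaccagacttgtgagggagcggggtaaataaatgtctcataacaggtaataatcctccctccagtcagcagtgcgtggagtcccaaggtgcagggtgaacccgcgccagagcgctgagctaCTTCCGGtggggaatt

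The cell classes differed more in proteasome transcripts than the libraries of any class did. Amacrine cells, the inhibitory interneurons, had the highest summed level of the 46 genes in every library and microglia, the resident immune cells, the lowest. In CPM, the UMIs of a class scaled to a common total, amacrine cells held 9821 in control, 9210 at 2 weeks, 9539 at 4 weeks and 10431 at 8 weeks. Microglia held 4491, 4584, 5176 and 4952 CPM in the same order. Bipolar cells (7133 to 7533 CPM) and cones (6770 to 7288 CPM) lay between and stood at 7291 and 7288 CPM in control. Müller glia, the radial support cells, kept to a range of 5493 to 5602 CPM. Rods held 5407 CPM in control, 6335 at 2 weeks, 6193 at 4 weeks and 5450 at 8 weeks. Rods thus lay below Müller glia in control and at 8 weeks and above them at 2 and 4 weeks.

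**Figure D1:**
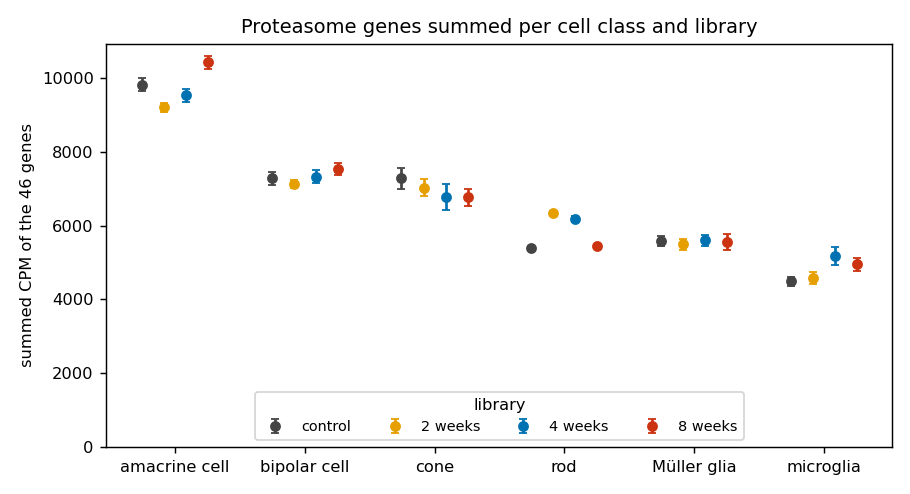
Summed level of the 46 proteasome genes (CPM) in each of 6 cell classes, 1 point per library with an exact Poisson 95% interval for counting error. Amacrine cells lie highest (9210 to 10431 CPM) and microglia lowest (4491 to 5176 CPM) in all 4 libraries, and rods lie higher at 2 and 4 weeks than in control and at 8 weeks.

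Each class was compared with rods over the 4 libraries, with the library as a term in edgeR's quasi-likelihood model on counts scaled by TMM (a trimmed mean of fold changes) and adjusted p-values over 8318 genes. Of the 46 genes, 43 passed the filter of 20 CPM in at least 4 sums. In amacrine cells 34 were higher than in rods and 5 lower at an adjusted p of at most 0.05, against 35.0% and 40.1% of all genes tested, with a median log2 fold of 0.78 where that of all genes was -0.14. In bipolar cells 27 were higher and 5 lower (30.8% and 34.1% of all genes), with medians of 0.51 and -0.11. In cones 27 were higher and 2 lower (21.4% and 24.2% of all genes), with medians of 0.55 and -0.22. In Müller glia 15 were higher and 7 lower (33.0% and 36.8% of all genes), with medians of 0.17 and -0.14, and library totals without TMM gave 13 higher and 12 lower. In microglia the direction depended on scaling, with 17 higher and 4 lower under TMM (30.6% and 34.3% of all genes) but 3 higher and 29 lower under library totals. That change of scaling moved the median of all genes in microglia from -0.16 to -0.91.

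The share of proteasome genes higher than in rods was thus above the share of all genes in amacrine cells, bipolar cells and cones. In amacrine cells the excess spanned the complex: 6 of 7 tested alpha ring genes, 6 of 7 beta ring genes, 5 of 6 ATPases, all 3 scaffold and receptor genes and 7 of 8 lid genes were higher. In cones 5 of 7 alpha ring and 6 of 7 beta ring genes were higher but only 2 of 8 lid genes. In Müller glia 2 of 7 alpha ring, 3 of 7 beta ring and 3 of 8 lid genes were higher.

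Psmb5, the chymotrypsin-like cutting subunit, showed the amacrine difference plainly. Amacrine cells held 790, 711, 714 and 785 CPM in the control, 2-, 4- and 8-week libraries, and rods held 179, 217, 214 and 194 CPM. Every amacrine value lay above every rod value, with a log2 fold of 1.84 (SE 0.147, edgeR adjusted p = 2.39e-12). Psmb6, the caspase-like subunit, had a log2 fold of 0.81 in amacrine cells, 0.65 in bipolar cells and 0.83 in cones, each past the threshold. In Müller glia (0.01) and microglia (0.15) it did not pass (edgeR adjusted p = 0.94 and 0.42). Psmb7, the trypsin-like subunit, passed in the same 3 classes, with log2 folds of 0.46 in amacrine cells, 0.31 in bipolar cells and 0.59 in cones.

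The activators differed most between classes. Psme1 and Psme2 encode the subunits of PA28, a cap known to open the core without ATP and to favour antigen processing. Microglia held 392, 411, 366 and 571 CPM of Psme1, and rods 19.9, 35.4, 59.7 and 30.9 CPM. The log2 fold was 4.40 for Psme1 (SE 0.226, edgeR adjusted p = 8.83e-17) and 4.01 for Psme2 (SE 0.209, edgeR adjusted p = 1.3e-16). Both were also higher than in rods in the other 4 classes, at 1.31 to 2.27 for Psme1 and 1.90 to 2.11 for Psme2. Psme3, the nuclear form of the cap, was lower in Müller glia (-0.70, edgeR adjusted p = 0.0069) and did not pass in the other classes. Psmf1, the inhibitor PI31, was higher than in rods in all 5 classes, by 0.81 in microglia to 1.43 in Müller glia under TMM, though in CPM the microglial value lay above that of rods in 2 of 4 libraries.

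Other genes were favoured by rods. Psme4, the nuclear activator PA200, stood at 107, 62.2, 60.9 and 106 CPM in rods and at 25.8, 30.4, 23.5 and 26.3 CPM in amacrine cells. The amacrine values were the lower in all 4 libraries, with a log2 fold of -1.65 (SE 0.188, edgeR adjusted p = 4.55e-09). Psma3, an alpha ring gene, was lower in Müller glia (-1.41), at 98.9 to 119 CPM where rods held 272 to 339 CPM. The ATPase gene Psmc6 was lower in 4 classes, most in Müller glia (-0.98) and microglia (-0.84). Psmd11, a lid gene whose amount is known to limit cap assembly, was lower than in rods in all 5 classes, by log2 folds of -0.54 to -0.88. The recombination factor Psmc3ip was lower in all 5 as well, by -0.58 in cones to -1.98 in Müller glia. Besides Psmf1, Psme1, Psme2 and Psmb5, the genes higher in all 5 classes under TMM were Psma4, Psma6, Psmb2, Psmb3, Psmc3 and Psmd3. In CPM, microglia lay above rods in 4 of 4 libraries for Psme1, Psme2 and Psmb3, in 3 for Psma6, in 2 for Psmc3, in 1 for Psma4 and Psmb5, and in 0 for Psmb2 and Psmd3. Psmb3 has 10 RefSeq copies or pseudogenes named after it, the most of any member, and its counts are uncertain to that extent, as are those of 18 other members with at least 1 such copy.

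**Figure D2:**
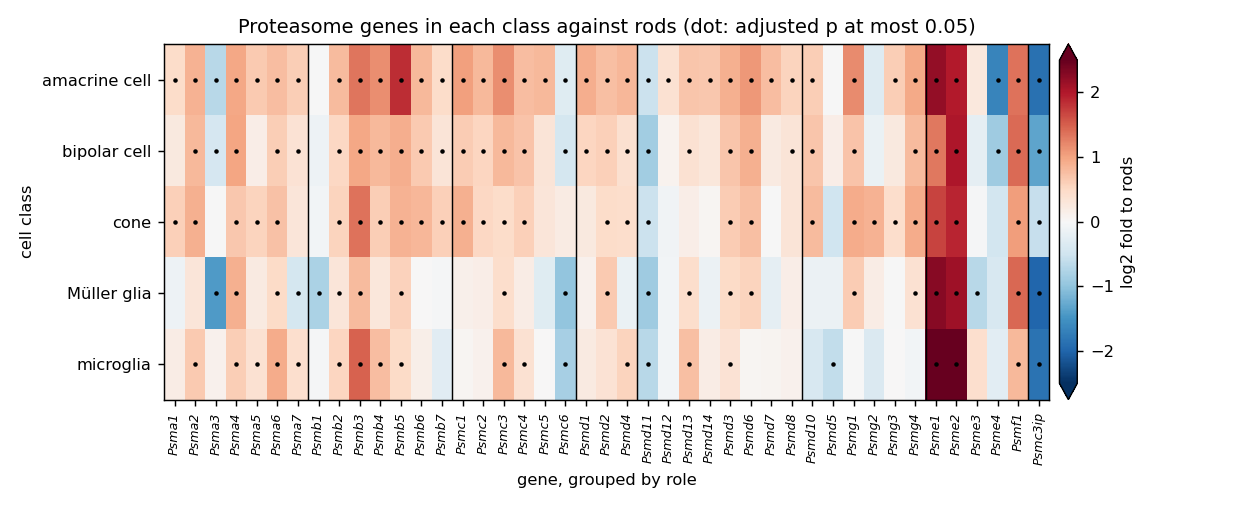
Log2 fold of each of 43 proteasome genes in 5 cell classes against rods over 4 libraries (colour, limited to -2.5 and 2.5), with genes on the horizontal axis grouped by role and a dot where the edgeR adjusted p was at most 0.05. The amacrine row is the most uniformly red, Psme1 and Psme2 are red in every row, and Psmd11 and Psmc3ip are blue in every row.

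The comparison with control asked which proteasome genes differed at 2, 4 and 8 weeks of diabetes. Ratios are log2 ratios of CPM with 0.5 counts added to each sum. Genes entered a class if their 4 levels averaged 20 CPM or more and the pair of libraries held 30 UMIs or more, and they were counted from a 1.5-fold difference on. The same control library stands under all 3 times, so the times are not independent of each other.

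In rods most core genes were higher than control at 2 weeks, where 31.6% of all genes used were higher. All 7 used alpha ring genes were higher than control at 2 weeks, with a median log2 ratio of 0.30, and 6 of 7 beta ring genes, with a median of 0.48. Of 8 lid genes 2 were higher and 6 lower (median -0.21), near the share of all genes, and the 6 ATPases were split 3 and 3 (median -0.03). The summed alpha ring stood at 1365 CPM in control and 1851 at 2 weeks, the beta ring at 1225 and 1760, and the lid at 974 and 865. At 4 weeks the summed rings stood at 1579 and 1485 CPM and the lid at 1083, all above control, and at 8 weeks at 1340, 1283 and 971 CPM. The 8-week rods thus lay close to control in all 3 groups.

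Of the 41 genes used in rods, 6 were at least 1.5-fold higher at 2 weeks and 3 at least 1.5-fold lower, against 7.49% and 28.6% of 5939 genes. At 4 weeks the counts were 2 and 2 (8.48% and 12.2% of 5940 genes), and at 8 weeks 2 and 0 (2.41% and 1.38%). The median over members was 0.07, 0.18 and -0.01 at the 3 times, and that over all genes -0.28, 0.03 and 0.00. In rods 10 listed rod genes such as Gnat1 summed to 43270 CPM in control and 80130 CPM at 2 weeks. Whether this bears on the low median of all rod genes at 2 weeks was not tested. TMM scaling added 0.26 to each rod ratio at 2 weeks. With it, 10 members were at least 1.5-fold higher and 0 lower, the ring medians were 0.55 and 0.74, and the lid median turned from -0.21 to 0.04 and the ATPase median from -0.03 to 0.22. Because scaling adds the same amount to every gene, it could not change the order of the ring and lid medians.

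**Figure D3:**
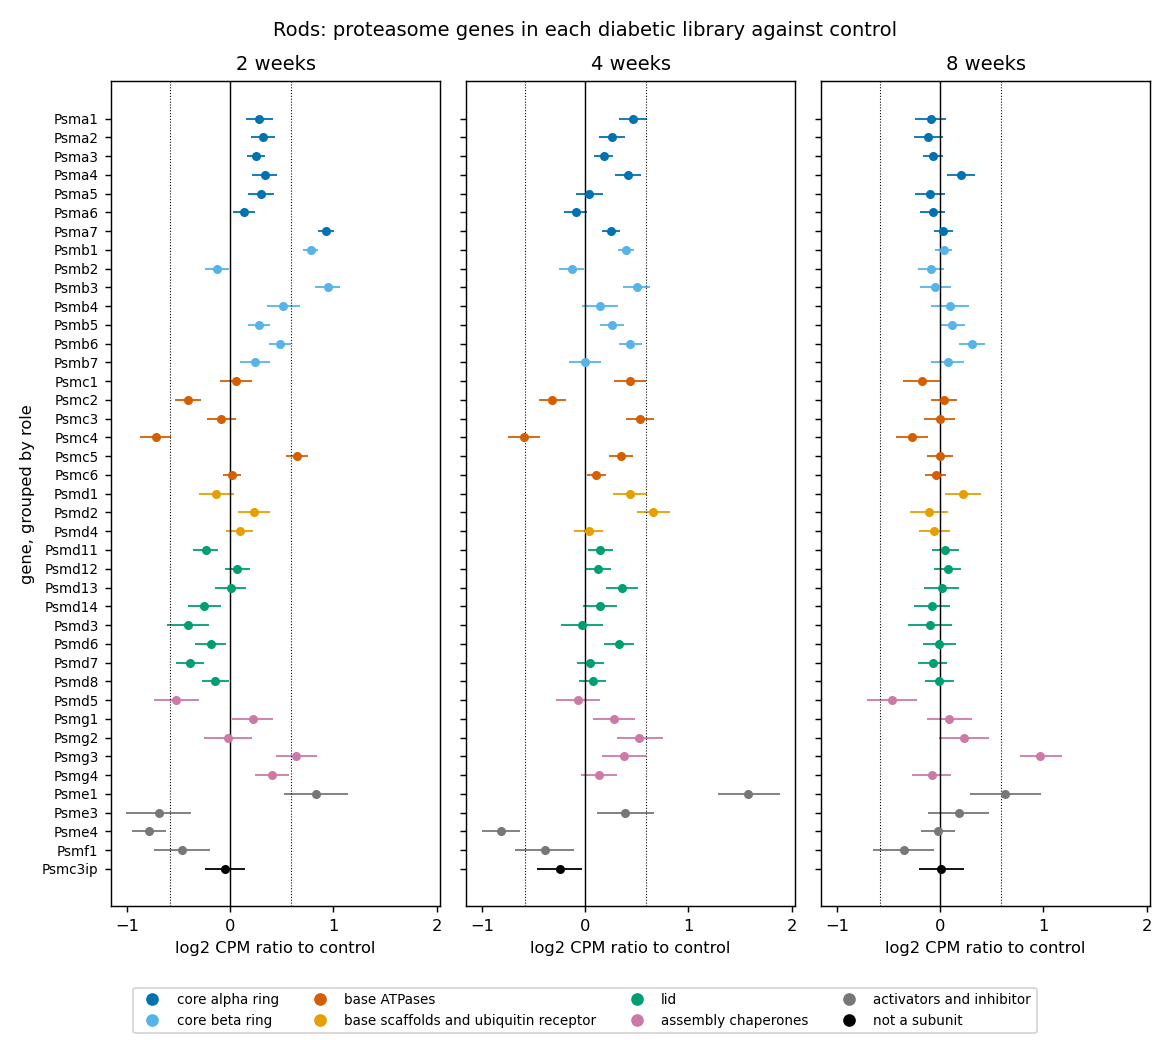
Log2 CPM ratio to control of 41 proteasome genes in rods at 2, 4 and 8 weeks, with exact 95% intervals for counting error, grouped and coloured by role (dotted lines, 1.5-fold). Alpha ring genes all lie to the right of 0 at 2 weeks, most lid genes to the left, and at 8 weeks the intervals of 5 genes lie above 0 and those of 3 below.

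The rods of the libraries fell into different clusters, and part of these differences was not seen within clusters. Control and 8-week rods lay mostly in cluster 0 (4055 of 5384 and 2185 of 3139 cells), 4-week rods in cluster 1 (4764 of 6432), and 2-week rods in clusters 2, 3 and 5 (4354, 2055 and 566 of 7649). In control, the summed proteasome level was 5163 CPM in cluster 0, 5629 in cluster 1 and 5655 in cluster 2. In clusters 3 and 5 it was 7439 and 8046 CPM. Within the 5 clusters with at least 50 cells in both libraries, the median member at 2 weeks lay between -0.30 and -0.02, where pooled rods gave 0.07. The medians of all genes in the same clusters were close to it, at -0.24 to 0.05. The beta ring median was above 0 in 3 of the 5 clusters and ran from -0.24 to 0.24. The alpha ring median was above 0 in 4 of the 5, from -0.09 to 0.26. The medians of the lid (-0.37 to -0.12) and of the ATPases (-0.55 to -0.13) were below 0 in all 5. The alpha ring median thus lay above the lid median in each cluster, while the median over all members lay below 0 in each.

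**Figure D4:**
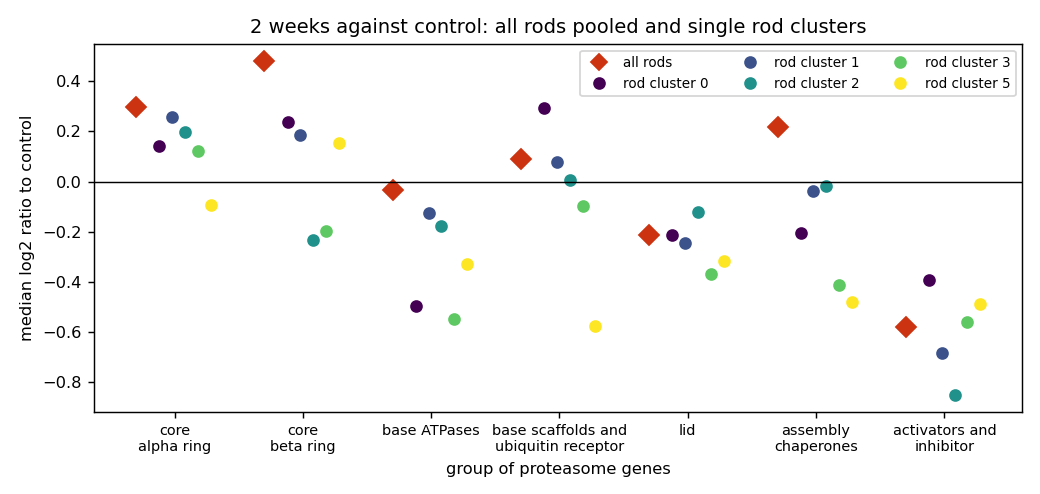
Median log2 ratio to control at 2 weeks of 7 groups of proteasome genes, in all rods pooled (diamonds) and within each of 5 rod clusters (circles). The lid, ATPase and activator medians of the clusters all lie below 0, and the pooled beta ring median of 0.48 lies above that of every cluster.

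Of the core genes, Psmb3, Psma7 and Psmb1 had the widest differences in rods at 2 weeks. Psmb3 stood at 125 CPM in control, 241 at 2 weeks, 176 at 4 weeks and 121 at 8 weeks. Psma7 stood at 306, 583, 364 and 313 CPM, and Psmb1 at 387, 665, 509 and 396 CPM. In each gene the 2-week library was highest and the 8-week library close to control. The log2 ratios at 2 weeks were 0.94 (0.83 to 1.07) for Psmb3, 0.93 (0.85 to 1.01) for Psma7 and 0.78 (0.71 to 0.85) for Psmb1. All 3 were higher in each of the 5 rod clusters, by 0.16 to 0.60, 0.32 to 0.88 and 0.25 to 0.75. Psma7 and Psmb1 were named after their values were seen.

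Of the catalytic genes in rods, Psmb6 stood at 167, 233, 226 and 207 CPM, higher than control in every diabetic library (0.48, 0.44 and 0.31). Within clusters at 2 weeks, Psmb6 was higher in 2 of 5, Psmb5 in 1 of 5 and Psmb7 in 2 of 5. Psmb5 stood at 179, 217, 214 and 194 CPM (0.28, 0.26 and 0.12), and its interval at 8 weeks spanned 0. Psmb7 stood at 105, 124, 105 and 111 CPM, with an interval above 0 at 2 weeks (0.24, 0.10 to 0.38) and intervals that spanned 0 at 4 and 8 weeks. The ubiquitin receptor Psmd4 kept to 122 to 135 CPM, with every interval spanning 0. The deubiquitinase Psmd14 stood at 93.1, 78.4, 103 and 88.1 CPM, lower at 2 weeks (-0.25, -0.41 to -0.09), though TMM scaling put that ratio at 0.01.

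Psme1 had the largest ratio of any member in rods. It stood at 19.9 CPM in control, 35.4 at 2 weeks, 59.7 at 4 weeks and 30.9 at 8 weeks, so all 3 diabetic libraries lay above control and the 4-week library was highest. The ratios were 0.83 (0.52 to 1.15), 1.58 (1.29 to 1.89) and 0.63 (0.29 to 0.98). Within clusters Psme1 was higher in 2 of 4 at 2 weeks, in 3 of 3 at 4 weeks (1.30 to 2.65) and in 2 of 2 at 8 weeks. Microglia, which hold most Psme1 per UMI, made up 2.98% of kept cells in control, 2.01% at 2 weeks, 1.02% at 4 weeks and 3.68% at 8 weeks. Free RNA could not be estimated for rods, and the part of microglial RNA in the rod values was not tested. Psme1 has 3 RefSeq copies or pseudogenes. Its partner Psme2 stood at 13.8, 18.7, 24.6 and 11.7 CPM in rods and missed the 20 CPM mean, and Psme3 stood at 30.6, 18.9, 40.1 and 34.6 CPM (-0.69, 0.39 and 0.18).

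The members lowest against control in rods were Psme4, Psmc4, Psmf1 and Psmd5, a chaperone of the base. Psme4 stood at 107, 62.2, 60.9 and 106 CPM, so the 2- and 4-week libraries were the low ones. The ratio was -0.79 (-0.95 to -0.62) at 2 weeks and -0.82 (-0.998 to -0.635) at 4 weeks. Psmf1 was lower at every time, at 37.2, 27.0, 28.3 and 29.1 CPM (-0.46, -0.39 and -0.36). Psmd5 stood at 59.8, 41.6, 56.8 and 43.2 CPM (-0.52, -0.07 and -0.47). Psmd9, Psmd10, Psma8 and Psmb11 were not used in any class, and Psmb11 had 0 UMIs in all 6.

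Some members differed in one direction across cell classes. Of 38 members used in all 6 classes, 6 were lower than control in every class at 2 weeks: Psmc2, Psmc4, Psmd3, Psmd8, Psmd14 and Psmf1. That is 15.8% of the members, where 5.99% of 2688 genes were lower in every class. Psmc2 and Psmc4 were again lower in every class at 4 weeks (5.26% of the members, near the 4.79% of 2110 genes). At 8 weeks 0 members were (3.16% of 2629 genes). Higher in every class were Psma7, Psmb1, Psmb4 and Psmg3 at 2 weeks (10.5% of the members, 15.4% of all genes). At 4 weeks they were Psma3, Psmd1, Psmd11 and Psmg2 (10.5% and 12.2%), and at 8 weeks Psmg3 alone (2.63% and 3.20%). The share of members higher in every class thus lay below that of all genes at each time. Scaling by TMM or by DESeq2 size factors turned the sign of Psmd8 and Psmd14 in rods and of Psmb1 and Psmb4 in bipolar cells at 2 weeks, of Psmb4 in microglia, and of Psma3 and Psmd11 in at least 1 class at 4 weeks. Under both scalings Psmc2, Psmc4, Psmd3 and Psmf1 stayed lower and Psma7 and Psmg3 higher in every class at 2 weeks, and Psmc2, Psmc4, Psmd1 and Psmg2 kept their direction at 4 weeks. With free RNA subtracted, Psma7 in Müller glia (-0.15) and Psmg3 in microglia (-1.02) were no longer higher at 2 weeks. Classes of a library share the animal and the preparation, so they are not replicates. Genes in these lists were named because of their values.

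Psmg3 was higher than control in nearly every class and library. In rods it stood at 50.5 CPM in control, 78.8 at 2 weeks, 65.4 at 4 weeks and 99.1 at 8 weeks. Amacrine cells held 74.0, 138, 102 and 164 CPM, Müller glia 42.8, 76.6, 56.1 and 91.4, and bipolar cells 48.5, 85.6, 95.7 and 102. In each of these classes control was lowest and the 8-week library highest. The ratio at 8 weeks was 0.97 (0.77 to 1.18) in rods, 1.14 (0.78 to 1.53) in amacrine cells, 1.10 (0.49 to 1.69) in Müller glia and 1.06 (0.54 to 1.62) in bipolar cells. In cones (0.87) and microglia (0.86) the interval at 8 weeks also lay above 0, while both had ratios below 0 at 4 weeks with intervals that spanned 0. Psmg3 was higher in all 4 rod clusters that could be compared at 8 weeks (0.77 to 1.03). At 2 weeks it was higher in 3 of 5 (-0.29 to 0.80) and at 4 weeks in 3 of 4 (-0.32 to 0.57). Subtracting free RNA left the 8-week ratios of the 4 classes it could be applied to at 0.83 to 1.14. It turned the 2-week ratio in microglia from 0.25 to -1.02, and left that of the other 3 classes at 0.82 to 0.95.

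Psmc4 and Psmc2 encode subunits of the ATPase ring that threads substrates into the core. Both were lower in all 6 classes at 2 and 4 weeks, while at 8 weeks the interval lay below 0 in 1 class each. Psmc4 stood at 127, 76.9, 84.1 and 105 CPM in rods, 216, 121, 145 and 231 in amacrine cells, 197, 115, 122 and 187 in bipolar cells, and 182, 112, 77.1 and 133 in cones. In these 4 classes the 2- and 4-week values lay below both control and 8 weeks. The ratios at 2 and 4 weeks were -0.72 and -0.59 in rods, -0.84 and -0.57 in amacrine cells, -0.78 and -0.70 in bipolar cells, and -0.70 and -1.21 in cones, with intervals below 0. Müller glia (-0.33 and -0.34) and microglia (-0.52 and -0.13) had intervals that reached above 0. Psmc4 was lower in all 5 rod clusters at 2 weeks (-1.36 to -0.73) and at 4 weeks (-0.86 to -0.71), and by less in all 5 at 8 weeks (-0.43 to -0.00). RefSeq has 3 copies or pseudogenes named after Psmc4.

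Psmc2 had its lowest ratios in Müller glia, at 216 CPM in control, 125 at 2 weeks, 121 at 4 weeks and 164 at 8 weeks. All 3 diabetic values lay below control, with ratios of -0.78 (-1.10 to -0.48), -0.84 (-1.17 to -0.52) and -0.40 (-0.78 to -0.04). Rods held 170, 128, 136 and 174 CPM and amacrine cells 315, 229, 235 and 352, so there the 8-week value did not lie below control. Psmc2 was lower in all 5 rod clusters at both 2 and 4 weeks. Under TMM the rod ratio of Psmc2 at 2 weeks was -0.15.

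**Figure D5:**
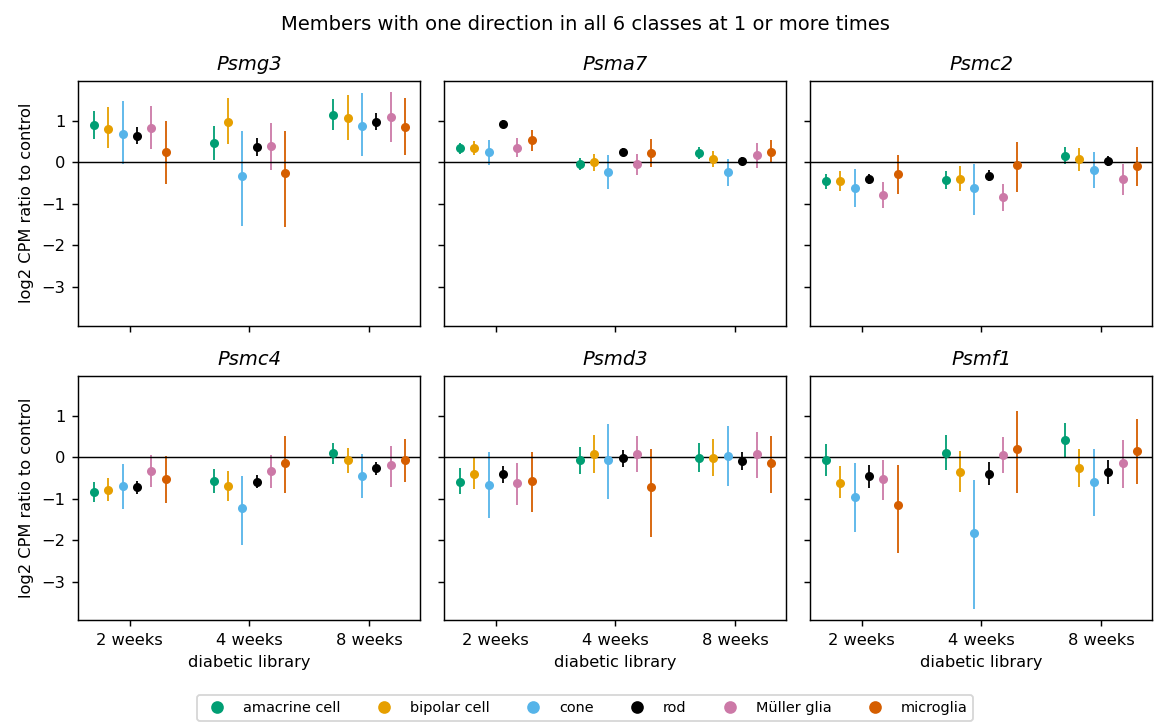
Log2 CPM ratio to control of 6 proteasome genes at 2, 4 and 8 weeks in 6 cell classes (colours), with exact 95% intervals for counting error. Psmg3 lies above 0 in all classes at 8 weeks, Psmc2 and Psmc4 below 0 in all classes at 2 and 4 weeks, and Psma7 lies above 0 and Psmd3 and Psmf1 below 0 in all at 2 weeks.

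In Müller glia the median of 40 used members was -0.02, 0.04 and 0.02 at the 3 times. At 2 weeks 1 was at least 1.5-fold higher and 4 lower (10.0% and 7.51% of all genes), at 4 weeks 0 and 2 (10.6% and 8.57%), and at 8 weeks 2 and 0 (10.1% and 5.70%). The members with the highest mean ratio were Psmg3 and the base scaffold gene Psmd1 (0.49, 0.23 and 0.47), and those with the lowest were Psmc2 and Psmd14. Psmd14 stood at 92.3, 60.7, 68.0 and 74.4 CPM, lower in each diabetic library, with an interval below 0 at 2 weeks (-0.60, -1.07 to -0.15). Psmb5, Psmb6, Psmb7 and Psmd4 in Müller glia had ratios between -0.13 and 0.23.

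In amacrine cells the median of 41 members was -0.08, -0.02 and 0.10. The counts at 1.5-fold were 1 higher and 3 lower at 2 weeks (8.92% and 6.04% of all genes), 0 and 0 at 4 weeks (8.29% and 6.32%), and 1 and 0 at 8 weeks (4.86% and 4.20%). At 2 weeks all 6 ATPases (median -0.33) and 6 of 8 lid genes (median -0.18) were lower, while 5 of 7 alpha ring genes were higher (median 0.06), where 53.9% of all genes were higher. The lid gene Psmd8 stood at 256, 178, 196 and 230 CPM, with control highest (-0.52, -0.38 and -0.16). The ratios of the catalytic genes ran from -0.29 (Psmb7 at 2 weeks) to -0.01 (Psmb5 at 8 weeks), and Psmd14 was lower at 2 weeks (-0.57, -0.83 to -0.30). Of the amacrine clusters, cluster 19 held 138 of its 174 cells in the 2-week library.

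In bipolar cells the median of 42 members was -0.03, 0.01 and 0.04. The counts were 1 higher and 2 lower at 2 weeks (9.71% and 6.29% of all genes), 4 and 1 at 4 weeks (14.1% and 7.53%), and 3 and 0 at 8 weeks (9.75% and 3.64%). At 2 weeks 5 of 6 ATPases and 7 of 8 lid genes were lower and 6 of 7 alpha ring genes higher, where 55.6% of all genes were higher. The core chaperone Psmg2 followed Psmg3 in mean ratio, at 30.01, 38.2, 45.1 and 56.7 CPM (0.33, 0.58 and 0.90), with an interval above 0 at 8 weeks. Psmf1 was lower at 94.7, 62.1, 74.3 and 78.8 CPM (-0.61, -0.35 and -0.26). Psme1 (0.64, 0.16 to 1.15) and Psme2 (1.00, 0.48 to 1.56) were higher at 4 weeks, and Psmd4 at 2 weeks (0.35, 0.06 to 0.66). The mitochondrial limit of 20% left 237, 1003, 304 and 285 bipolar cells in the 4 libraries. A limit of 40% gave 1483, 2625, 1367 and 2023, so the class described here lacks most barcodes with bipolar profiles. Its make-up also differed between libraries: cluster 20, with Pcp2 and Trpm1 among its top genes, held 8 cells in control and 94 at 2 weeks.

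In cones the median was -0.03, -0.08 and -0.11, over 40, 38 and 39 members. The counts were 2 higher and 6 lower at 2 weeks (11.3% and 8.64% of all genes), 1 and 4 at 4 weeks (9.69% and 12.2%), and 1 and 1 at 8 weeks (10.7% and 7.24%). All 6 ATPases were lower than control at 2 weeks (median -0.44) and at 8 weeks (median -0.17), and 5 of 6 at 4 weeks (median -0.29), where 52.5%, 47.6% and 48.4% of all genes were higher at 2, 8 and 4 weeks. Psmf1 was lowest, at 86.8, 44.6, 22.7 and 56.9 CPM from 30, 23, 5 and 27 UMIs (-0.95, -1.82 and -0.61), and the 4-week value rests on those 5 UMIs. Psme1 stood at 86.8, 89.2, 163 and 75.9 CPM, highest at 4 weeks (0.91, 0.17 to 1.66). The intervals of Psmb5, Psmb6, Psmb7, Psmd4 and Psmd14 in cones all spanned 0.

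In microglia the median of 40 members was 0.04, 0.18 and 0.07. The counts were 0 higher and 1 lower at 2 weeks (20.1% and 8.99% of all genes), 7 and 2 at 4 weeks (15.5% and 15.6%), and 1 and 0 at 8 weeks (5.93% and 10.8%). Psmb1 had the highest mean ratio, at 228, 310, 344 and 265 CPM (0.44, 0.59 and 0.22), and its 2-week ratio became -0.25 with free RNA subtracted. Psmg2 followed, from 20, 14, 12 and 13 UMIs, with every interval spanning 0. Psmb5 stood at 138, 156, 216 and 165 CPM, with an interval above 0 at 4 weeks (0.65, 0.21 to 1.07). Psme1 was higher at 8 weeks (0.54, 0.33 to 0.75), and Psme2 at 4 weeks (0.71) and 8 weeks (0.44). The lowest mean ratios were those of Psme4 (0.15, -1.49 and -0.36) and Psmd3 (-0.57, -0.72 and -0.15). Their 4-week values rest on 5 and 10 UMIs. The interval of Psme4 at 4 weeks was wide (-3.30 to -0.29), and its other intervals and all those of Psmd3 spanned 0.

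RNA from rods in other droplets moved with the 2-week values. The 10 rod genes summed to 1878, 10520, 2334 and 1821 CPM in Müller glia and to 1807, 13700, 2884 and 1937 CPM in microglia, and the free RNA estimated from them at 2 weeks was 31.4% and 40.9%, against 11.7% and 11.3% in control. In bipolar cells it was 20.9%, 32.9%, 25.9% and 39.2% in the 4 libraries. Subtracting it turned the 2-week ratio of Psma7 in Müller glia from 0.35 to -0.15 and that of Psmb1 from 0.30 to -0.10. In amacrine cells Psma7 stayed at 0.35 (0.34 before). The 2-week ratios of Psmc2 and Psmc4 stayed below 0 after subtraction in all 4 classes, at -0.99 to -0.42 and -1.04 to -0.31. In Müller glia and microglia subtraction lowered most members at 2 weeks, so it cannot single out these 2 genes there. In amacrine and bipolar cells Psmc2 (-0.42 in each) and Psmc4 (-0.82 and -0.76) moved little. Cones held 16530, 22840, 14700 and 19060 CPM of the 10 rod genes in the 4 libraries, where all barcodes pooled held 16000, 33530, 25760 and 17890. Free RNA was not estimated or subtracted for cones, so their values carry an unknown part of rod RNA.

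Genes of the same pathway outside the name rule were taken from fixed lists. Of 11 listed partners, among them the cap subunit gene Sem1, 10 were used in rods, with 2 at least 1.5-fold higher and 1 lower at 2 weeks and 2 and 0 at 4 weeks. All rod genes gave 7.49% and 28.6% at 2 weeks and 8.48% and 12.2% at 4 weeks. Sem1 stood at 155, 270, 204 and 178 CPM in rods, with control lowest (0.80, 0.40 and 0.20). Zfand5, which binds the proteasome and is known to speed it, stood at 239, 202, 191 and 174 CPM (-0.24, -0.32 and -0.46). Of 8 genes of ubiquitin and its activation, 1 was higher and 2 lower in rods at 2 weeks, the latter near the 28.6% of all genes.

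For the 2 lists that follow, the shares of all rod genes were 7.49% higher and 28.6% lower at 2 weeks and 8.48% and 12.2% at 4 weeks. Of 10 genes that deliver ubiquitinated substrates, 0 passed 1.5-fold in rods at 2 weeks and 1 was higher at 4 weeks. The unfoldase gene Vcp stood at 237, 246, 307 and 248 CPM. Of 7 genes that control subunit transcription, 6 were used in rods, with 0 higher and 1 lower at 1.5-fold at 2 weeks and 1 higher at 4 weeks. By direction alone, 2 of the 6 were higher and 4 lower at 2 weeks (median -0.29). At 4 weeks 6 were higher and 0 lower (median 0.14), and at 8 weeks 5 and 1 (median 0.13). Nfyb, a subunit of nuclear factor Y, stood at 455, 511, 515 and 496 CPM (0.17, 0.18 and 0.12) and Nfyc at 80.2, 98.2, 118 and 91.9 CPM (0.29, 0.55 and 0.20). Each of the 2 was lowest in control, and at 2 weeks they were the only used genes of this list above it.

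The 3 immunoproteasome genes, which replace the catalytic subunits in immune cells, were not counted among the 46. Psmb10 stood at 37.4, 53.3, 51.7 and 40.2 CPM in rods and 144, 94.6, 184 and 157 CPM in microglia, Psmb9 at 61.5, 38.7, 59.4 and 49.5 CPM in microglia, and Psmb8 at 0 to 4 UMIs per library in microglia.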

How the data were processed

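Retinal cells of 4 libraries were measured with droplet single-cell RNA sequencing (control replicate 2 and the samples at 2, 4 and 8 weeks). The deposited files hold raw counts of UMIs per gene and barcode, with no normalization by the authors. Cell Ranger 3.0.1 and, as genome, Rnor_6.0 come from the submitters' processing notes. Which gene models were counted is not given in the sources used here. Control replicate 1 was not analysed here.

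Barcodes were kept from 500 UMIs and 200 genes on, up to a mitochondrial share of 20%. The barcodes with the highest Scrublet scores (scanpy 1.11.5), 6.12% to 12.9% per library by its barcode number, were removed as doublets. Libraries shared 13 to 70 barcodes per pair. Without the 46 genes, 2000 variable genes, 30 principal components, 15 neighbours and Leiden clustering (leidenalg 0.10.2, resolution 1.0) gave clusters, named by the share of listed markers. Amacrine cells were clusters 9, 16 and 19. UMIs were summed per class and library and given as CPM. Ratios carry exact conditional binomial 95% intervals and levels exact Poisson ones, for counting error only. Classes were tested against rods with edgeR 4.0.16 in R 4.3.3 (TMM, library and class, Benjamini-Hochberg over all genes tested). Cells of a class in a library counted as 1 sample. The library term takes up differences between libraries, so p-values rest on how class differences varied over the 4 libraries. These are also 4 conditions, so that variation mixes differences between conditions with noise. Both procedures were tested on simulated data.

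The 46 genes, the lists, roles and tests were chosen with earlier results of these data known. Named per class were Psmb5, Psmb6, Psmb7, Psmd4, Psmd14, Psme1, Psme2 and Psme3, the highest and lowest mean ratios (4 each in rods, 2 each elsewhere), the 3 highest and 3 lowest called against rods, and up to 4 genes per list, and others were named after their values were seen. Alternatives were other scalings, filters, mitochondrial limits, doublets kept, Leiden resolutions 0.5 and 2.0, free RNA subtracted, single rod clusters, DESeq2 1.42.0, each library left out and no library term. Promoters are from RefSeq. Some genes of the pathway lists are not reported here.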

Additional observations from a re-analysis of the deposited data

Results flagged for a closer look

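Some members stood above control at all 3 times in one class and below it at all 3 times in another, with an interval apart from 0 in at least 1 library of each. The differences between classes were not tested, and all intervals cover counting error of single libraries. The mean of the 3 log2 ratios of Psmb5, the chymotrypsin-like subunit, was 0.32 higher in rods (0.22) and 0.47 higher in microglia (0.37) than in amacrine cells (-0.10). That of Psmb6, the caspase-like subunit, was 0.54 higher in rods (0.41) than in amacrine cells (-0.13). That of the lid gene Psmd12 was 0.34 higher in rods (0.09) than in bipolar cells (-0.25) and 0.60 higher than in cones (-0.51). That of the lid gene Psmd13 was 0.33 higher in rods (0.12) and 0.57 higher in microglia (0.36) than in bipolar cells (-0.21). Some of these directions rest on ratios close to 0. Psmd13 was at 0.004 and 0.013 in rods at 2 and 8 weeks and at -0.0016 in bipolar cells at 4 weeks. Psmb5 was at -0.008 in amacrine cells at 8 weeks. The rod values are those of pooled rods. Of 5 rod clusters compared at each time, Psmb5 was higher than control in 1 at 2 weeks, 2 at 4 weeks and 3 at 8 weeks. Psmb6 was higher in 2, 3 and 3 clusters in the same order, Psmd12 in 2, 3 and 4, and Psmd13 in 3, 4 and 1. With free RNA subtracted, the 2-week ratio in microglia turned from 0.18 to -1.12 for Psmb5 and from 0.18 to -0.04 for Psmd13, so in microglia neither gene then stood above control at all 3 times.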

How the results depend on the processing

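The median ratio of the members to control was set against the medians of the members' own lower and upper counting bounds. It moved beyond these in 4 of 195 recomputed values, all at 2 weeks. Such bounds are about as wide as the interval of a single gene, so a median that stayed within them may still have shifted. In rods the median was 0.07 and became 0.32 with TMM, 0.34 with DESeq2 size factors and -0.11 as the median over single rod clusters. In microglia it was 0.04 and became -0.55 with free RNA subtracted. The total of members past 1.5-fold over the 3 times was 9 in Müller glia, 5 in amacrine cells, 11 in bipolar cells, 15 in cones, 11 in microglia and 15 in rods. With a 25% difference as the threshold these totals were 23, 18, 29, 29, 32 and 41, and at 2-fold 1, 1, 2, 3, 2 and 1. A mean of at least 100 CPM left 2 in Müller glia, 2 in bipolar cells, 7 in cones, 4 in microglia and 5 in rods, from fewer genes. The bipolar total was 19 at a limit of 10% mitochondrial UMIs, 3 at 40% and 7 with doublets kept. The cone total was 23 with no filter on low counts, and the microglial total 29 with free RNA subtracted. Of the recomputed totals at 1.5-fold, 22 counted as moved and 55 as the same. The cause of these shifts was not tested.

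Against rods, DESeq2 gave 24 members higher in Müller glia (15 in edgeR) and 1 lower in cones (2 in edgeR). Library totals without TMM gave 12 lower in Müller glia, 4 lower in cones, and 3 higher and 29 lower in microglia. With no filter 4 were lower in cones and 11 higher in microglia (17 with it). With free RNA subtracted 9 were higher in Müller glia and 6 in microglia, and cones were left out of that setting. Leaving out each library gave 11 to 26 higher in microglia (26 without the 2-week library, 11 without the 8-week library), 12 to 24 higher in Müller glia (24 without the 2-week library), 3 to 5 lower in bipolar cells (3 without the 2-week library) and 1 to 3 lower in cones (1 without control or without the 8-week library). With no replicate block, that is without the library term, 34 members were higher in amacrine cells, 25 in bipolar cells, 25 in cones, 15 in Müller glia and 14 in microglia. No paired analysis was possible for the comparisons with control because each group has a single library. In amacrine cells the count of members higher than in rods ran from 30 to 35 over all settings. Depth limits cones and microglia most, which had 54 and 77 cells in the 4-week library.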
